A study of Mus musculus with 6 samples.

Results

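The 39 *Hox* genes of the mouse lie in 4 clusters, and their surroundings were examined for peaks of acetylated lysine 56 of histone H3 (H3K56ac) in mouse embryonic stem cells (mESCs). Members were the protein-coding genes named *Hoxa*, *Hoxb*, *Hoxc* or *Hoxd* followed by a number in GENCODE M21, 39 out of 21938 such genes annotated on 21 chromosomes. Peaks were taken inside each cluster and up to 300 kb on either side, which gave 21 of the 11106 peaks. All positions are on mm10 (GRCm38) and are counted from 1.

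The cells were V6.5, an embryonic stem cell line, kept undifferentiated on feeder cells with LIF. They were infected with lentivirus for a control shRNA of scrambled sequence (Scramble) or for one that targets *Sirt6* (*Sirt6* KD), which codes for a deacetylase of H3K56ac. The 6 libraries were 2 H3K56ac immunoprecipitations and 1 input DNA library for each of the 2 shRNAs. The processed data were 1 merged set of peak positions from both groups, so neither the origin nor the height of a peak is known, a change with *Sirt6* KD cannot be read from it, and no test between groups was made.

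*Hox* genes encode homeodomain transcription factors that give cells their position along the body axis. They are numbered by paralogue group, and the order of the genes in a cluster follows the order in which they are used from head to tail. Embryonic stem cells keep most of these CpG-rich promoters silent under Polycomb proteins until differentiation cues such as retinoic acid arrive. H3K56ac sits near the entry and exit of DNA on the nucleosome, and in mammalian cells it is known from active promoters and enhancers.

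The labelled cell type was checked against its marker genes. Some peak base lay within 1 kb of a start in 8 of 8 stem cell genes, and a peak midpoint did in 5, namely *Pou5f1*, *Nanog*, *Klf4*, *Zfp42* and *Lin28a*. Across all protein-coding genes these measures held for 35.7% and 33.9%, in that order. Of 14 fibroblast genes that feeder cells would express, 0 were marked at the promoter (upper limit 21.4%). Only 3 of these 14 had CpG-rich promoters, as defined below. Among all CpG-poor genes 13.7% were marked, a share below that limit, so the count of 0 says little about feeder cells. The positions carry no read counts, so a region without a peak may hold acetylation that was too weak for the peak caller. Shares are followed by their Wilson 95% interval in parentheses, which covers counting error only, as do the upper limits given for counts of 0, which allow 3 genes.

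To show what an unmarked *Hox* promoter and a marked neighbour look like, the 250 bases before the start of the CpG-richest gene with a usable entry in the RefSeq promoter table are given for HoxA, HoxB and HoxD, followed by the central 200 bases of the peak nearest to each cluster. The table, on GRCm38.p6, held 22 of the 39 *Hox* genes. Capitals mark CpG dinucleotides, which make up CpG islands.
Hoxa5 promoter, chr6:52204588-52204837, minus strand: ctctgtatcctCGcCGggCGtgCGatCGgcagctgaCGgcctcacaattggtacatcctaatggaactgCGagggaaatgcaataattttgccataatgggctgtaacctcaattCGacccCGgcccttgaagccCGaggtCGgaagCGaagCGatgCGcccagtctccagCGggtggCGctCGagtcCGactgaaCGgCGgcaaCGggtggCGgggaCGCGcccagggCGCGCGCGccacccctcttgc
Hoxb8 promoter, chr11:96281655-96281904, plus strand: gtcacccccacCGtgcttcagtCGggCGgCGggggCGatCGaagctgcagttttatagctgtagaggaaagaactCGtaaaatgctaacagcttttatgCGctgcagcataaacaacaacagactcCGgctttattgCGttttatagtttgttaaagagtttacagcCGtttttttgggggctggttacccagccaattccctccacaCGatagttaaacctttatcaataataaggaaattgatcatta
Hoxd13 promoter, chr2:74667975-74668224, plus strand: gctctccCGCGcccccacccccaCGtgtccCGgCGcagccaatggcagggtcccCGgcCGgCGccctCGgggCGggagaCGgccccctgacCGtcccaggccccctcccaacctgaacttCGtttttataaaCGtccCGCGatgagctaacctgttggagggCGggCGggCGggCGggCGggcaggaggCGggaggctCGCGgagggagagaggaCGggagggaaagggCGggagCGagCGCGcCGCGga
HoxA nearest peak, chr6:52104271-52104470, plus strand: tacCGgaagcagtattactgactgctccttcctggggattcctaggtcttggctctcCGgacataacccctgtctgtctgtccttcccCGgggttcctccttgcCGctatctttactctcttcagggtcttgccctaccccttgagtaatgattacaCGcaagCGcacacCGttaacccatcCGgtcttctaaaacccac
HoxB nearest peak, chr11:96251747-96251946, plus strand: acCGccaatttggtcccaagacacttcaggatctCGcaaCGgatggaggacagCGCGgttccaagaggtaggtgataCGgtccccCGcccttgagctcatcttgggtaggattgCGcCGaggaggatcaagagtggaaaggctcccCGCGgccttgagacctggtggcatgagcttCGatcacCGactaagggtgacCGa
HoxC nearest peak, chr15:103214822-103215021, plus strand: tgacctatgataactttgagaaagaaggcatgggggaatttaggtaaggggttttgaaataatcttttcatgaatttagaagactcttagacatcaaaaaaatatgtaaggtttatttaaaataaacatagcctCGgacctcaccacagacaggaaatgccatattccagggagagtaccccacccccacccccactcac
HoxD nearest peak, chr2:74825377-74825576, plus strand: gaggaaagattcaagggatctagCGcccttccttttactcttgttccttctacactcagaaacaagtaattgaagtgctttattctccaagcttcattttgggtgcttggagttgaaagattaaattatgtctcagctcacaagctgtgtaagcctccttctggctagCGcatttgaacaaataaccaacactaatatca

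The *Hoxa5* stretch held 28 CpG and the *Hoxd13* stretch 31, with GC contents of 63.6% and 74.4%. The *Hoxb8* stretch held 12 CpG at a GC content of 44.4%. Among the peaks, the one nearest to HoxB, at the start of the long non-coding RNA gene *Gm53*, was the richest, with 14 CpG in 200 bases. The peak near HoxA held 8, and those near HoxD and HoxC held 2 and 1. *Hoxa5* and *Hoxd13* were thus denser in CpG than each of the 4 peaks. The promoters shown were picked for their CpG content, so they cannot tell whether CpG density separates marked from unmarked sequences.

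No *Hox* gene had a called H3K56ac peak at its promoter. A promoter peak, with its midpoint within 1 kb of any annotated start of the gene, was found at 0 of 39 *Hox* genes, which allows up to 7.69%, whereas 33.9% of all protein-coding genes had one. A promoter was called CpG-rich when the observed number of CpG in the 500 bases on either side of the gene's 5′ end exceeded 0.6 of the number its C and G content predicts. By this measure 25 of the 39 *Hox* promoters were CpG-rich. Of these 25, 0 had a promoter peak, which allows up to 12%, against 57.6% of all CpG-rich genes. Both limits treat the genes as independent, which neighbours in 1 cluster need not be, so they may be too low. The other 14 *Hox* genes were CpG-poor, a class in which 13.7% of genes had a promoter peak. Counting any peak base within 1 kb of a start, which held for 35.7% of all genes, left the *Hox* count at 0, as did moving the midpoint limit to 3 kb.

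The absence of peaks extended far beyond the promoters. The median distance from a *Hox* transcription start to the nearest peak base was 99.9 kb, with quartiles at 68.6 and 148 kb. In the other CpG-rich genes the median was 0.179 kb, and in the other CpG-poor genes 69.0 kb. Much of that contrast comes with having a promoter peak at all, since CpG-rich genes other than *Hox* genes that lacked one had a median of 47.2 kb. A distance over 50 kb was found for 35 *Hox* genes (89.7%) and for 39.8% of all genes. It was also found for 48.8% of the other CpG-rich genes without a promoter peak and for 55.9% of the other CpG-poor genes. The 4 *Hox* genes nearer than 50 kb were *Hoxb6*, *Hoxb7*, *Hoxb8* and *Hoxb9*. Genes of 1 cluster share the same bounding peaks, so the 39 distances reflect 5 gaps between peaks and are not independent.

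**Figure D1:**
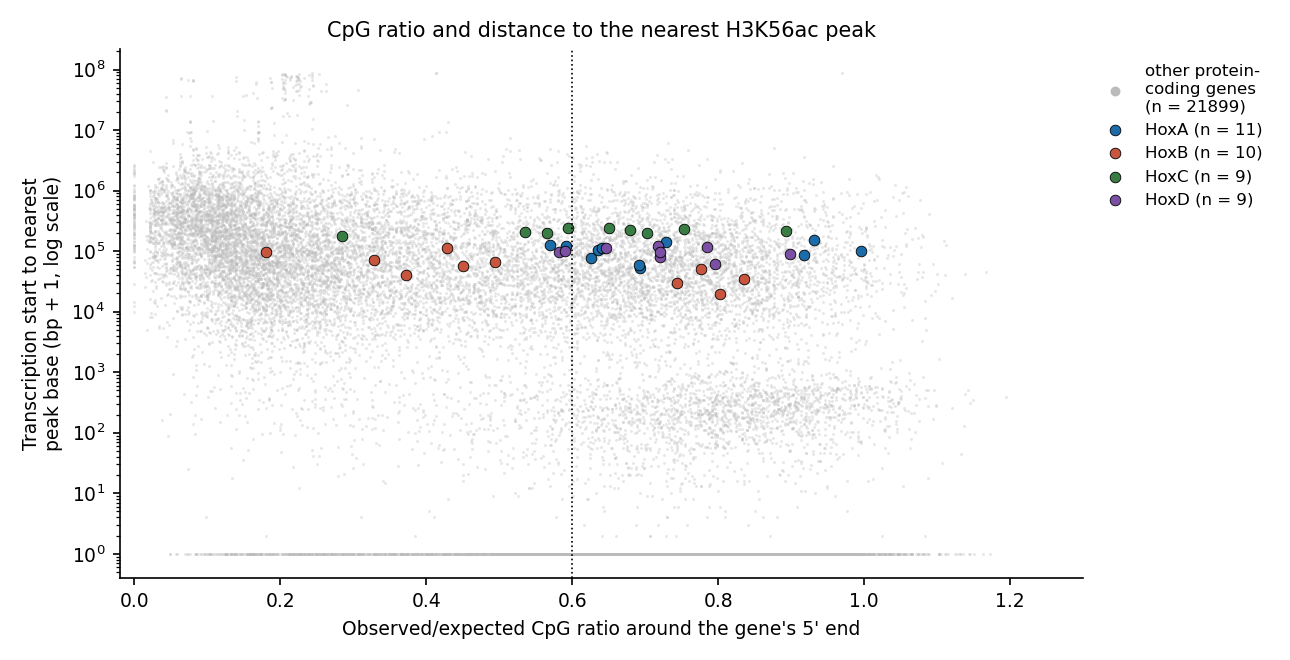
Observed/expected CpG ratio around the 5′ end (x axis) against the distance from the nearest annotated start to the nearest H3K56ac peak base (y axis, bp + 1, log scale), with 1 point per protein-coding gene. Other genes form a band within 1 kb of a peak that is densest to the right of the dotted line at a ratio of 0.6, and none of the 39 coloured *Hox* points lies in it, the nearest being *Hoxb9* at 19.3 kb.

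HoxA spans 105 kb of chromosome 6 and is transcribed from the minus strand. It held 11 *Hox* genes, 9 of them with CpG-rich promoters, and no peak. *Hoxa5*, which patterns the lung and the cervicothoracic spine, had the highest CpG ratio of all *Hox* genes (0.995), followed in this cluster by *Hoxa13* (0.931), a gene of the distal limb and the genital tubercle. Only *Hoxa9* (0.591) and *Hoxa10* (0.57) fell below the limit. The annotated 5′ end of *Hoxa3* lies beyond *Hoxa6*, so its CpG ratio (0.626) describes that outer start. The peak nearest to all 11 genes was the same one, beyond the anterior end of the cluster. Distances to it grew along the cluster, from 59.1 kb at *Hoxa2*, a gene of the second branchial arch, through 98.8 kb at *Hoxa5* to 155 kb at *Hoxa13*. That peak (52103005 to 52105738, 2734 bp) was centred in an intron of *Halr1*, a long non-coding RNA gene next to the cluster, and reached to 2 bp from a *Halr1* start. Its midpoint lay 1369 bp from that gene's nearest start, so it did not count as a promoter peak. On the other side there was no peak within 300 kb. *Evx1*, a homeobox gene related to even-skipped 52.6 kb beyond *Hoxa13*, had a CpG-rich promoter and no peak closer than 208 kb. The next peak (52639477 to 52640245, 769 bp) lay in an exon of *Hibadh*, a gene of valine breakdown, 454 bp from a start.

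HoxB spans 174 kb of chromosome 11 (96194316 to 96368256) and is transcribed from the plus strand. It was the CpG-poorest cluster, with 4 CpG-rich promoters among 10 and a median CpG ratio of 0.47, against 0.69, 0.65 and 0.72 in HoxA, HoxC and HoxD. It was also the only cluster with a peak inside. This peak (96251523 to 96252171, 649 bp) lay in the long interval between *Hoxb13* and *Hoxb9*, in an intron of *Gm53* and 203 bp from a start of that gene. It contained 51 CpG at a ratio of 0.824 and no repeat-masked base. It was the nearest peak to all 10 genes. *Hoxb9*, a gene of the thoracic spine, was the closest of all 39 *Hox* genes at 19.3 kb. Distances grew from there through *Hoxb8* (29.7 kb), *Hoxb7* (34.5 kb), *Hoxb6* (40.3 kb) and *Hoxb5* (51.2 kb) to *Hoxb1* (114 kb), a gene of the fourth rhombomere. *Hoxb13*, known from the prostate and the tail end of the axis, lay on the other side of the peak at 57.2 kb. The CpG-richest promoter was that of *Hoxb7* (0.836) and the poorest that of *Hoxb2* (0.181), the lowest of all *Hox* genes.

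HoxC spans 116 kb of chromosome 15 (102921103 to 103036852) and is also transcribed from the plus strand. It held 9 *Hox* genes, 5 of them CpG-rich, and no peak, and it lay farthest from any. *Hoxc4* was the nearest gene, 180 kb from a peak, and *Hoxc10*, which acts in lumbar motor neurons, the farthest of all 39 at 245 kb. Every HoxC gene was farther from a peak than any gene of the other clusters. *Hoxc12*, a posterior gene, had the highest CpG ratio in the cluster (0.893) and lay 215 kb from a peak. The ratio of *Hoxc4* was 0.285. For the posterior genes *Hoxc13*, *Hoxc12*, *Hoxc11* and *Hoxc10* the nearest peak (102721357 to 102722146, 790 bp) was at *Calcoco1*, a gene of selective autophagy and transcriptional coactivation, 380 bp from a start. For the others it was the peak (103214085 to 103216175, 2091 bp) at *Cbx5*, the gene of heterochromatin protein HP1α, 175 bp from a start. *Hoxc5* has an annotated transcript that begins within *Hoxc10*, so its CpG ratio (0.565) describes that outer start.

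HoxD spans 96.8 kb of chromosome 2 (74668310 to 74765142), on the plus strand, and had 9 *Hox* genes and no peak. It had the highest median CpG ratio of the clusters, 0.72, and 7 CpG-rich promoters. The highest ratio was that of *Hoxd13* (0.899), a gene of digit formation, and the lowest that of *Hoxd12* (0.582). *Hoxd1* was the nearest gene at 62.2 kb and *Hoxd8* the farthest at 120 kb, with *Hoxd13* at 88.7 kb. The annotated 5′ ends of *Hoxd3* and *Hoxd4* lay 2 bp apart and shared a CpG ratio of 0.72, which describes this outer start and not their inner ones. Distances in HoxD thus rose from both ends towards the middle, unlike those of HoxA. The bounding peaks were at the neighbours on either side. The first (74578214 to 74579609, 1396 bp) covered the start of *Lnpk*, which shapes the endoplasmic reticulum, with its midpoint 5 bp from a start. The second (74825171 to 74825783, 613 bp) lay in front of *Mtx2*, the gene of a mitochondrial import protein, 326 bp from a start. *Evx2*, 8.75 kb from *Hoxd13*, had a CpG ratio of 0.86 and no peak closer than 79810 bp.

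**Figure D2:**
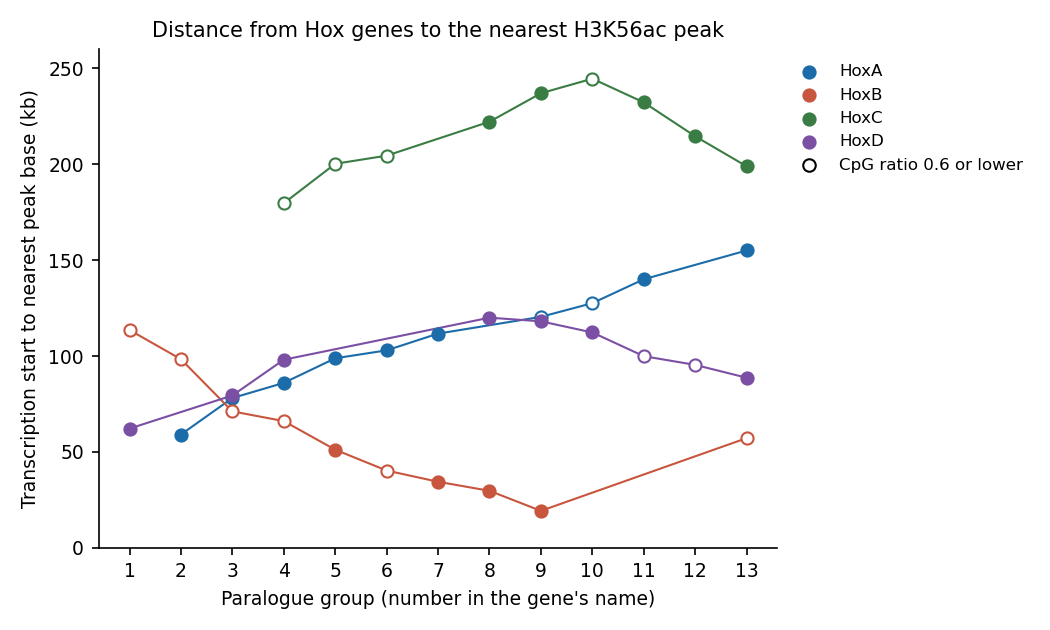
Distance in kb from the nearest annotated start of the *Hox* genes described in the text to the nearest peak base (y axis), by paralogue group (x axis), with 1 line per cluster and open symbols for promoters with a CpG ratio of 0.6 or lower. HoxA distances grow from 59.1 kb at *Hoxa2* to 155 kb at *Hoxa13*, HoxB distances are smallest at *Hoxb9*, and HoxC lies above the other clusters between 180 and 245 kb.

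Grouped by position along the body axis, the medians were 74.6 kb for the 8 anterior genes (paralogue groups 1 to 3), 98.8 kb for the 15 central genes (groups 4 to 8) and 124 kb for the 16 posterior genes (groups 9 to 13). The ranges overlapped widely, reaching 114 kb in the anterior genes and running from 29.7 to 222 kb in the central and from 19.3 to 245 kb in the posterior genes. HoxC, the cluster farthest from any peak, has no gene in groups 1 to 3, so it enters only the central and posterior medians. The order of the medians was not shared by the clusters. It held in HoxA, whereas in HoxB the anterior gene *Hoxb1* was the farthest and the posterior gene *Hoxb9* the nearest.

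Each cluster lay in a stretch without any peak that was longer than the cluster itself, or, for HoxB, in a pair of them. Around HoxA this stretch ran for 534 kb (52105739 to 52639476) and held 14 protein-coding genes, the 11 *Hox* genes, *Evx1*, *Gm28308* and *5730596B20Rik*. Of their promoters 12 were CpG-rich. Around HoxC it ran for 492 kb (102722147 to 103214084), with the 9 *Hox* genes, *Smug1*, a DNA repair gene, and the outermost 5′ end of *Calcoco1*, and 5 CpG-rich promoters. Around HoxB it ran for 444005 bp (96252172 to 96696176), from the *Gm53* peak to an intronic peak of *Skap1*, an adaptor gene of T cells, with 9 *Hox* genes and 4 CpG-rich promoters. *Hoxb13* lay in a separate stretch of 175 kb without a CpG-rich promoter. The stretch around HoxD was the shortest of the 4, 246 kb (74579610 to 74825170), and held 8 CpG-rich promoters. Promoters were counted by gene, here and in all gaps and runs below. *Hoxd3* and *Hoxd4* have nearly the same 5′ end, as do *Hoxa3* and *Gm28308*. Each of these pairs thus enters the counts as separate promoters.

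**Figure D3:**
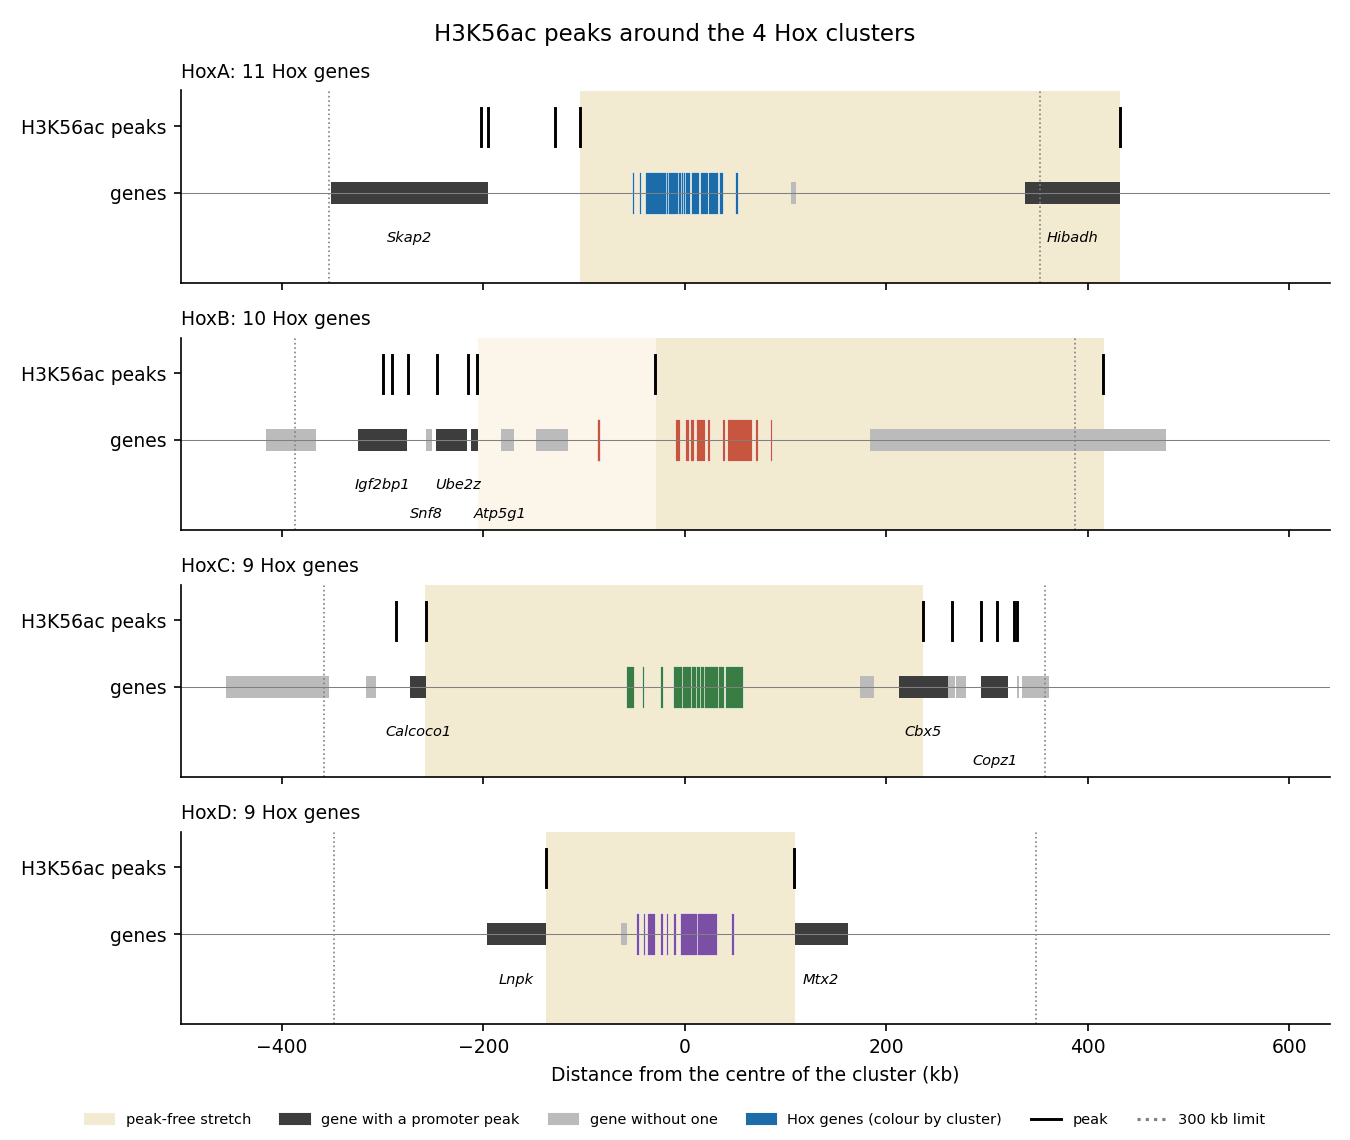
Map of the 4 clusters, with the distance from the cluster's centre in kb on the x axis. Black ticks are H3K56ac peaks up to the dotted 300 kb limits, together with the peaks that bound a shaded peak-free stretch, coloured boxes are *Hox* genes, and other protein-coding genes outside the clusters are dark where they have a promoter peak and light where they do not. The *Hox* genes of HoxA, HoxC and HoxD each sit inside a shaded stretch, and HoxB is divided by the peak at *Gm53*, with the paler shade marking the stretch of *Hoxb13*.

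By length these stretches were not rare. Of the 11085 gaps between neighbouring peaks, which had a median of 49 kb, 1134 (10.2%) were at least as long as that of HoxA, 1325 (12%) as that of HoxB, 1215 (11%) as that of HoxC and 2074 (18.7%) as that of HoxD. By the number of CpG-rich 5′ ends lying in them they ranked higher. Nearly coincident 5′ ends of different genes were not merged in any gap, so the rank of HoxD may depend on counting *Hoxd3* and *Hoxd4* separately. Some of the 5′ ends counted in other gaps belong to genes that have a promoter peak within 1 kb. As many as in HoxA were found in 3 gaps (0.0271%), counting its own, and as many as in HoxD in 9 (0.0812%). The stretches of HoxC and HoxB were matched by 84 (0.758%) and 220 (1.98%) gaps. Of all gaps 63.3% held no CpG-rich promoter, and those at least as long as a *Hox* stretch held a median of 1. Gaps that were as rich and no longer numbered 2 for HoxA and 2 for HoxD, each count including the cluster's own, and 27 for HoxC and 77 for HoxB. Counting CpG-rich genes without a promoter peak instead, a choice made after seeing the data, left the numbers of the stretches at 12, 4, 5 and 8 in HoxA to HoxD. As many were then held by 3 gaps (0.0271%) for HoxA, 149 (1.34%) for HoxB, 57 (0.514%) for HoxC and 8 (0.0722%) for HoxD. The other gap as rich as HoxA and no longer held the protocadherin alpha genes, which encode adhesion proteins of neurons.

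**Figure D4:**
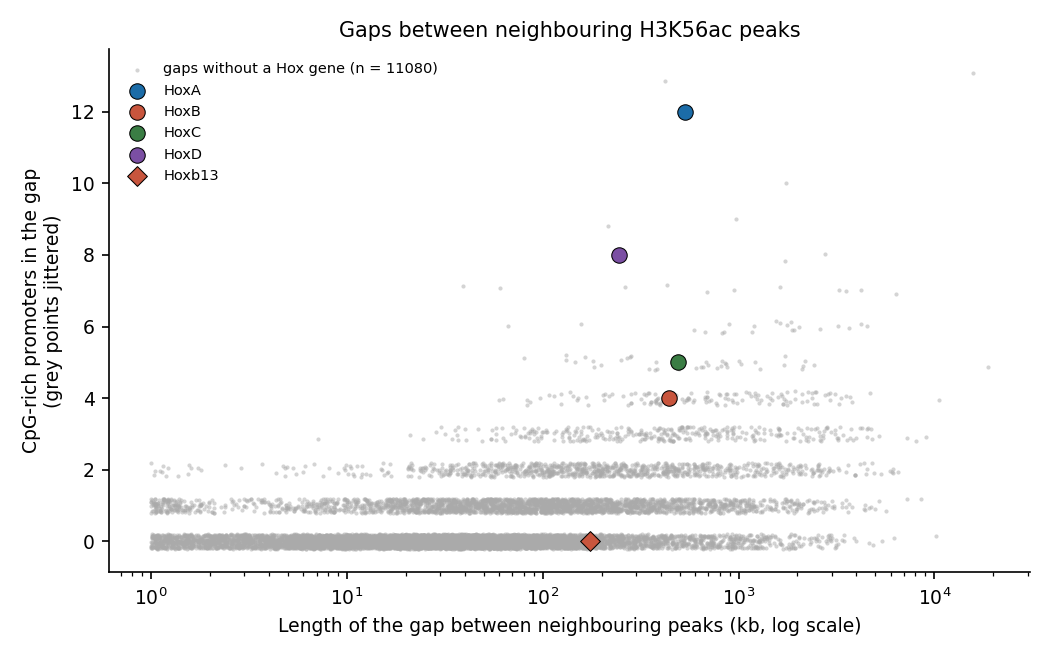
Length in kb (x axis, log scale) and number of CpG-rich gene 5′ ends (y axis) of each of the 11085 gaps between neighbouring peaks. HoxA with 12 and HoxD with 8 CpG-rich promoters lie at the upper edge of the cloud for their lengths of 534 and 246 kb, HoxC with 5 and HoxB with 4 lie inside it, and the stretch of *Hoxb13* holds none.

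To compare the clusters with other stretches of equal gene number, every run of neighbouring protein-coding genes in the genome was counted. Among runs of 11 consecutive protein-coding genes, as many as HoxA has *Hox* genes, 11.6% had no peak from the first to the last base (2527 of 21728). The share was 12.5% for the 10 genes of HoxB (2720 of 21749) and 13.6% for the 9 genes of HoxC and of HoxD (2955 of 21770). Such runs became rare once they were required to hold as many CpG-rich promoters as the cluster. A fall follows from that requirement itself, since 57.6% of all CpG-rich genes had a promoter peak. The run sizes and CpG limits were also taken from the clusters, which are part of the count. The shares therefore describe how common such runs are and test nothing about the *Hox* genes. Of 2080 runs of 11 genes with at least 9 CpG-rich promoters, 4 (0.192%) had no peak, and all 4 of them lay in HoxA. The shortest ran from *Hoxa2* to *Hoxa11* over 83 kb, and the longest from *Hoxa3* to *Evx1* over 149 kb. For runs of 9 genes with at least 7 CpG-rich promoters, as in HoxD, the share was 0.366% (14 of 3823). Among these 14 runs, 6 lay in HoxA and 1, from *Evx2* to *Hoxd4*, in HoxD. The remaining 7 were found in 5 other places, among them predicted genes on chromosome 4 and the run from *Ubn2* to *Kdm7a* on chromosome 6. At the CpG content of HoxC the share was 0.556% (60 of 10801, in 26 places), and at that of HoxB it was 0.678% (101 of 14901, in 35 places), of which 10 and 8 runs touched a *Hox* cluster. HoxB itself is not among them as a whole, because of the peak at *Gm53*. Overlapping runs share genes, so they are not independent.

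Outside the clusters peaks were not scarce within 300 kb. With flanks of 100 kb, clusters and flanks together held 5 peaks, 1 of them inside HoxB. The 4 clusters together held 1 peak in 492 kb, or 0.203 peaks per 100 kb, and the 300 kb on either side of them held 20 peaks in 2400 kb, or 0.833 per 100 kb. The value for the genome was 0.407. By cluster there were 4 flanking peaks at HoxA, 6 at HoxB, 8 at HoxC and 2 at HoxD. They were unevenly placed, since all 4 at HoxA and all 6 at HoxB lay on the side of the lower coordinate, whereas HoxC had 2 there and 6 on the other side. In width the 21 peaks, from 266 to 4388 bp with a median of 838 bp, were close to the whole set with its median of 913.5 bp. Of these 21, 11 (52.4%) were promoter peaks of a protein-coding gene. The widest lay in an intron of *Igf2bp1*, 917 bp from a start. This gene of an RNA-binding protein of embryonic tissues had 3 of the 6 peaks before HoxB.

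The share of marked genes next to the clusters varied with the width of the flank. Of 26 other protein-coding genes with a start within 300 kb outside a cluster, 11 had a promoter peak (42.3%, 25.5 to 61.1%). Among the 16 with CpG-rich promoters there were 9 (56.2%, 33.2 to 76.9%). Both counts include *Hibadh*, which has a start within 300 kb but its peak beyond that limit, near its 5′ end 380 kb away. The shares over all genes, 33.9% and 57.6%, lie within these intervals. Within 100 kb, 20% of the 10 genes in and around the clusters had one. The 3 other protein-coding genes annotated inside the clusters, *Gm28308* and *5730596B20Rik* in HoxA and *Gm28230* in HoxD, had none.

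The nearest marked genes lay at very different distances. For HoxA they were *Skap2*, a gene of a Src-associated adaptor 143 kb away, and *Hibadh*, whose 5′ end was 380 kb away, with 14 protein-coding genes between them. For HoxB they were *Atp5g1*, a gene of mitochondrial ATP synthase at 119 kb, and *Snx11*, a sorting nexin gene at 409 kb, with 13 genes between them. HoxC was framed by *Calcoco1* at 199 kb and *Cbx5* at 203 kb, with 10 genes between. HoxD had the closest pair, *Lnpk* at 88.9 kb and *Mtx2* at 60.7 kb, with 11 genes between them. Between the marked starts lay 628, 702, 518 and 246 kb in HoxA to HoxD. Around HoxB the marked genes also included *Ube2z*, *Snf8* and *Igf2bp1*, and around HoxC *Copz1*, a coat protein gene of Golgi vesicles. CpG-rich neighbours without a promoter peak included *Atf7*, *Atp5g2* and *Hnrnpa1*, the last with a midpoint 3605 bp from a start.

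The clusters also hold non-coding genes, which regulate *Hox* expression in several known cases. Of 25 annotated inside them, 18 long RNAs and 7 microRNAs, 1 had a promoter peak, *Gm53*. The share over all non-coding genes was not counted, so whether 1 of 25 is low cannot be read from it. The median distance was 89.9 kb. *Hotairm1*, at the anterior end of HoxA and known from myeloid differentiation, lay 51.2 kb from a peak. *Hotair*, transcribed from HoxC, lay 226 kb away and *Haglr* in HoxD 62.3 kb away. *Hottip*, just beyond *Hoxa13*, where it is known to keep the posterior HoxA genes active in the limb, lay 157 kb away.

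The microRNAs of the clusters are shown with bases 2 to 8, the seed by which they recognise targets, in capitals, from RefSeq on GRCm38.p6. The paralogous clusters carry copies with a shared seed, of which miR-196 is known to target *Hox* transcripts.
miR-10a-5p: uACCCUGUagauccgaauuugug
miR-10b-5p: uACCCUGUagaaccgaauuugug
miR-196a-5p: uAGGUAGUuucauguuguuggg
miR-196b-5p: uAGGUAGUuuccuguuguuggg
miR-615-3p: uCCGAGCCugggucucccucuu

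The genes of miR-10a, next to *Hoxb4*, and of miR-10b, next to *Hoxd4*, lay 65.0 and 99.1 kb from the nearest peak. *Mir196a-1*, between *Gm53* and *Hoxb9*, was the microRNA gene closest to a peak, at 13 kb. Its copy *Mir196a-2* in HoxC, which gives the same mature 5p sequence, lay 241 kb from a peak, and *Mir196b* in HoxA 124 kb. *Mir615*, inside *Hoxc5*, lay 199 kb from a peak.

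Genes that act with or upstream of the *Hox* genes were compared by the same measure, beside the 33.9% of all genes. The chromatin regulators of *Hox* genes had the highest share of these lists, 13 of 19 (68.4%, 46.0 to 84.6%). Of the 19, 15 were CpG-rich, and 9 of these had a promoter peak (60.0%, 35.7 to 80.2%), beside 57.6% of all CpG-rich genes. Marked among them were *Ezh2*, *Suz12*, *Jarid2*, *Rnf2* and *Ring1* of the Polycomb complexes, which keep *Hox* genes silent, and *Kmt2a*, *Men1* and *Wdr5*, which counteract them. Those without a promoter peak included *Bmi1*, *Cbx2*, *Cbx8*, *Kdm6a* and *Eed*, of which *Eed* was reached by the edge of a peak. Of 13 retinoic acid genes 4 had one (30.8%, 12.7 to 57.6%), the receptors *Rara*, *Rarg* and *Rxrb* and the synthesis enzyme *Aldh1a2*. The degrading enzymes *Cyp26a1*, *Cyp26b1* and *Cyp26c1* had none. Of the 9 TALE cofactors, homeodomain proteins that bind DNA with *Hox* proteins, *Pbx4* and *Pknox1* had one (22.2%, 6.32 to 54.7%).

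Homeobox genes of other chosen families resembled the *Hox* genes. Those families leave out homeobox genes counted above, of which *Nanog*, *Pou5f1* and 2 of the 9 TALE genes had a promoter peak. Of 76 members of 17 further families, which lie as single genes or small groups, *Dlx2* and *Gbx2* had a promoter peak (2.63%, 0.725 to 9.10%). Among the 62 with CpG-rich promoters the same 2 did (3.23%, 0.889 to 11%). At *Irx5* a peak reached to within 1 kb of a start without its midpoint lying there. *Dlx2* is known from the forebrain and the jaw, and *Gbx2* from the border of midbrain and hindbrain and from naive stem cells. None of the 14 *Nkx*, 9 *Pax*, 8 *Lhx*, 6 *Irx* and 4 *Pou3f* genes had a promoter peak. The 6 ParaHox and *Cdx* genes, the evolutionary sister group of the *Hox* genes, had 0 as well, with *Cdx4* nearest to a peak at 9921 bp. The *Hox* counts of 0 of 39 and 0 of 25 thus stood beside low counts in these chosen families outside the clusters. The difference between the groups was not tested.

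**Figure D5:**
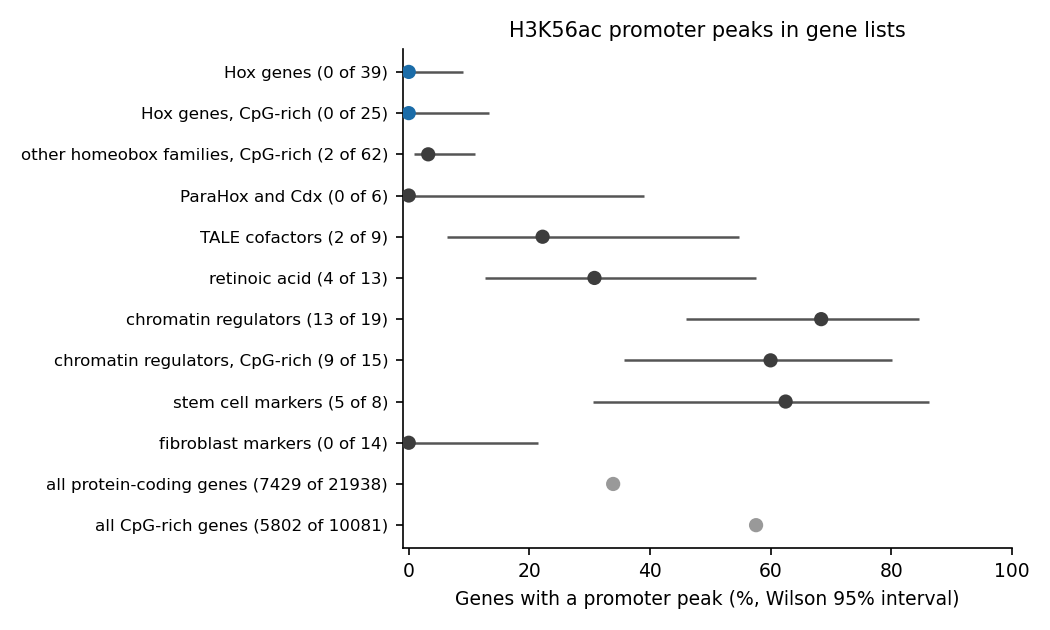
Percentage of genes with an H3K56ac promoter peak in each list (x axis), with Wilson 95% intervals as bars and the counts beside each name. *Hox* genes and other homeobox families lie near 0%, chromatin regulators lie at 68.4% beside the 33.9% of all genes, their CpG-rich members at 60.0% beside the 57.6% of all CpG-rich genes, and intervals of the short lists are wide.

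Sequence motifs were searched on both strands in the 300 bases around each promoter (250 before to 50 after the 5′ end) and the central 400 bases of each peak. The octamer ATTTGCAT, bound by POU5F1, was in 0 of 39 *Hox* promoters and 1.57% of all promoters, and in 0 of the 21 peaks and 1.5% of all peaks. A CTCF core motif was in 0 of 39 and 0 of 21 as well, against 0.556% of promoters and 0.279% of peaks, and so was the DR5 retinoic acid response element, against 0.0593% and 0.099%. At such background shares, counts of 0 say only that these letters are not in these windows.

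Reads with several genomic matches were not kept when the peaks were made, so the uniqueness of the sequence was measured. Windows of 75 bases were used, 1 of the read lengths that the study's sources give. Of all such windows, 98.3% in the HoxA stretch, 99.1% in that of HoxB, 99.4% in that of HoxC and 98.5% in that of HoxD occurred once on the assembled chromosomes. Over the genome this held for 89.1% of windows. Within the clusters alone the share ran from 99.05% in HoxB to 99.96% in HoxA. Of the 39 *Hox* promoters, 38 had unique windows throughout, and the exception, *Hoxc8*, reached 97.95%. The stretches held no unsequenced base and were 21.4 to 26.3% repeat-masked, against 36.4% of the genome.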

How the data were processed

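Reads of the H3K56ac and input libraries were trimmed with Trim Galore and aligned by the authors to mm10 with bowtie, keeping reads with 1 reportable location. Duplicates were removed with Picard, peaks were called with MACS2, and blacklisted regions were filtered before the peaks were merged. The data deposited were coordinates of those merged peaks, and the deposited score was 0 for every peak, so it served for no threshold. Read depth per library, which the study lists, was not used here.

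Genes and starts came from GENCODE M21 on GRCm38, the assembly behind mm10, and sequence from RefSeq's GRCm38.p6. Distances ran from any annotated start of a gene to the nearest peak base, gaps between neighbouring peaks were ranked over the assembled chromosomes, and runs of consecutive protein-coding genes were counted completely in place of random stretches. Each 75-base window was compared exactly on both strands. The members and lists were chosen with earlier results of these data known. Named by rule were all *Hox* genes, *Evx1* and *Evx2*, the marked genes at each end, the genes at bounding peaks and the list members with a promoter peak, or without one where most had it. Values of single genes that are not given by name are not reported here. Other flanking and non-coding genes were named after their values were seen. The distance and window counts were checked on simulated positions. No test was made, since no value per library exists. Calculations used Python 3.11.15, numpy 2.4.6, pandas 2.3.3, scipy 1.17.1, numba 0.67.0 and matplotlib 3.10.9.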

Additional observations from a re-analysis of the deposited data

How the results depend on the processing

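Of 39 alternatives run on 13 results, 11 gave a count within 1.5 times the reported one or a share within its interval, and 28 moved the value, lengths and the median distance counting as moved at any change. No *Hox* gene had a promoter peak under any of the 3 other definitions. Keeping only peaks at least as wide as the median lengthened the peak-free stretches to 1991523 bp at HoxA, 635337 bp at HoxB, 741727 bp at HoxC and 1029261 bp at HoxD, raised the median distance from a *Hox* start to 155064 bp and left 9 peaks near the clusters. Measured to the midpoint, that distance was 100646 bp. Clusters and flanks together held 5 peaks with flanks of 100 kb and 86 with flanks of 1 Mb. With 100 kb the share of flank genes with a promoter peak was 20% of 10 genes. It was 37.9% of the 29 genes in and around the clusters and 34.5 to 41.4% under the other settings. A CpG ratio over 0.75 left 11 CpG-rich *Hox* promoters, and a ratio taken over 1 kb either side 19. The share of runs without a peak fell to 0.192%, 0.678%, 0.556% and 0.366% at the CpG content of HoxA, HoxB, HoxC and HoxD, and to 7.09%, 7.84%, 8.76% and 8.76% without olfactory and vomeronasal receptor genes. It rose to 19.5%, 21.2%, 23.3% and 23.3% with wide peaks alone, and to 14.3%, 15.4%, 16.8% and 16.8% when only promoter peaks counted. Requiring the span of HoxB gave 11.5%. These moves follow from the alternatives' own construction, which counts fewer peaks or other genes. No paired analysis was possible because single libraries have no values in a merged set, and for the same reason no replicate could be left out. A weak or narrow region of acetylation cannot be told apart from none, since the merged set holds no peak heights and library depth was not used here.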

Other observations

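Gaps that held at least 8 CpG-rich promoters were few, and 7 of the 9 lay outside the *Hox* clusters. The protocadherin alpha genes, from *Pcdha1* to *Pcdhac2*, held 13 such promoters in 423 kb, as did a gap of 15.7 Mb on the X chromosome, from *4930550L24Rik* to *Slc6a8*. A gap of 216 kb on chromosome 4, from *Klhl9* to *Ifne*, held 9 in the type I interferon genes. The remaining 4 were *Arfgef3* to *Mtfr2* with 10, *Ubn2* to *Kdm7a* with 9, *Aldoart2* to *Mipol1* with 8 and *Naa11* to *Vamp9* with 8, in gaps of 0.969 to 2.75 Mb. Sequence uniqueness differed among these gaps. Of 75-base windows, 77.1% occurred once in the interferon gap, 89.0% in the protocadherin gap and 88.2% in the X-linked gap, whereas the other 4 ranged from 95.7% to 98.8% and the HoxA and HoxD stretches had 98.3% and 98.5%.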
